A study of Mus musculus with 9 samples.

Results

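The semaphorins, plexins, neuropilins, Eph receptors and ephrins were taken as all rows of the counts table whose symbol begins with Sema, Plxn, Nrp, Eph or Efn followed by the letter and number of a family member, which gave 54 of 24421 rows. These were 7 class 3 semaphorins, 13 semaphorins of classes 4 to 7, 9 plexins, 2 neuropilins, 9 EphA and 5 EphB receptors, 5 ephrin-A and 3 ephrin-B ligands, and 1 antisense RNA, *Plxna4os1*. RNA came from the brains of C57BL/6 mice carrying SB28, a GFP-marked mouse glioma cell line, in 3 control libraries from vehicle-treated mice and 3 BAL101553 libraries from mice given BAL101553 (lisavanbulin), the oral prodrug of a microtubule-disrupting drug that activates the spindle assembly checkpoint. A further 3 libraries are labelled astrocytes and carry the same treatment label, and the paper's text does not name them. The study describes tumor cells sorted as GFP+, CD45- and CD11b-, whereas the labels give whole tissue. The control tumors were taken after a shorter growth than the treated ones, so treatment and time of growth cannot be told apart. Labels number the libraries of a group 1 to 3 without saying that they came from separate mice, so p-values measure the spread between these libraries.

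Semaphorins are secreted or membrane-bound cues that steer growing axons and migrating cells. Plexins are their receptors, and most class 3 semaphorins need a neuropilin beside the plexin to bind. Eph receptors are receptor tyrosine kinases that bind ephrins on neighbouring cells, where A-type ephrins are held in the membrane by a lipid anchor and B-type ephrins span it, and signals run in both directions. In the nervous system both systems direct axon paths and boundaries between cell groups, and in gliomas they are known for their part in invasion and vessel growth.

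Promoter sequences are shown for *Sema3d* and *Efna5*, the only 2 members called between BAL101553 and control in every fit that left out 1 library, and for *Plxnc1*, which had no read in any control library and reads in every BAL101553 library. The windows are the 250 bases before the gene start given by RefSeq on GRCm38.p6, where 47 of the 54 members had such a window. Gene positions elsewhere in the text are from GENCODE, whose start can differ, as for *Sema3d* (12383385). Capitals mark a GC box (GGGCGG) or a CCAAT box (CCAAT) read on either strand, and overlaps between the motifs were allowed.
Sema3d, chr5:12382916-12383165, plus strand: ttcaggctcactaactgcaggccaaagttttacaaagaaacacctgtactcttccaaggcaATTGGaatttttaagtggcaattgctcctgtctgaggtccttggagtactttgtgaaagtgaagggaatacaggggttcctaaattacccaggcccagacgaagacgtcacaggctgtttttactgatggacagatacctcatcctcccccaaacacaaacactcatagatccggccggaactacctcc
Efna5, chr17:62881318-62881567, minus strand: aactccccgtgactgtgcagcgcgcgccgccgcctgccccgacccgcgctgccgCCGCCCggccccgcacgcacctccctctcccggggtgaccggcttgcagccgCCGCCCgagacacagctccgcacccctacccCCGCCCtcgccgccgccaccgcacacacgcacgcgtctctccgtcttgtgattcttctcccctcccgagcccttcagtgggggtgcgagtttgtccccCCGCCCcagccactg
Plxnc1, chr10:94944846-94945095, minus strand: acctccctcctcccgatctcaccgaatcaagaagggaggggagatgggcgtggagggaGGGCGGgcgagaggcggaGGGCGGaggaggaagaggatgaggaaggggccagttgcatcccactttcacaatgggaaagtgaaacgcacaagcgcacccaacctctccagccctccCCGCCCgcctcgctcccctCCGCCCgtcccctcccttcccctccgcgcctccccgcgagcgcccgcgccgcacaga
The *Sema3d* window held 1 CCAAT box and 0 GC boxes at 46.8% G and C, the *Efna5* window 4 GC boxes at 74.8%, and the *Plxnc1* window 4 GC boxes at 68.8%. No window of the 3 held a TATA box (TATAAA). Over all 32851 windows of this length, 32.7% held at least 1 GC box, 33.8% a CCAAT box and 12.4% a TATA box. How many windows held 4 GC boxes was not counted, so the matches only describe these letters.

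Control libraries held 24540452 to 28761388 counted reads, BAL101553 libraries 26667789 to 34013875 and libraries labelled astrocytes 22919523 to 29230743. The 54 genes took 0.371% to 0.453% of the counts of a library. Levels are given as CPM, the count scaled to a common library size by TMM over the 9 libraries, and fold changes carry their standard error (SE). The highest gene of a class and shares of a class are given as CPM per kilobase of exon. Lists of genes over or under a CPM limit and sums of markers use plain CPM, which does not allow for gene length. The limit of detection was taken as 3 reads, which is at most 0.135 CPM in a library. The chi-square between libraries of 1 group was 14.9 to 68.4 for each degree of freedom, so none were repeats within counting noise. The labels were checked against marker lists. The 10 astrocyte markers summed to 13420 to 16380 CPM in the libraries labelled astrocytes. In the tumor libraries they summed to 946.6 to 984.1 CPM in controls and 694.2 to 812.8 CPM after BAL101553, carried mostly by *Gja1*. Of the 7 tested between these groups, *Gja1* was called lower (adjusted p = 0.0363 in edgeR's quasi-likelihood test). *Slc1a3* went the other way, from 0.635 ± 0.0707 to 1.89 ± 0.927 CPM (SD, n = 3; adjusted p = 0.0403). The libraries labelled astrocytes also held 10280 to 12720 CPM of 6 oligodendrocyte markers, against 15.3 to 20.6 in the tumor libraries, so they are called astrocyte-labelled here. Against the BAL101553 libraries, 8 of 9 microglia and macrophage, 5 of 7 pericyte and 7 of 10 endothelial markers were also called higher in them. In each of these lists 1 was called lower, and of all genes 46.3% were called higher. The microglia and macrophage sum ranged from 463.9 to 978.9 CPM over these 3 libraries. In bulk RNA, fewer cells of a type and less RNA per cell cannot be told apart.

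In both SB28 tumor groups, 1 gene each held most of the class 4 to 7 semaphorin, plexin, neuropilin, EphA, EphB and ephrin-B sums. Among semaphorins of classes 4 to 7, *Sema7a*, a membrane-anchored semaphorin that also binds integrins, made up 86.5% of the summed CPM per kilobase in controls and 82.7% after BAL101553. *Plxnb2*, a receptor for class 4 semaphorins, made up 61.3% and 58.5% of the plexin sum. *Epha2*, a receptor for A-type ephrins, made up 96.4% and 91.1% of the EphA sum. *Nrp2* made up 78% and 80.5% of the neuropilin sum, *Ephb4* 72.7% and 67.4% of the EphB sum, and *Efnb2* 64% and 66.8% of the ephrin-B sum. *Sema3e*, a ligand of plexin-D1, and *Sema3a*, the classic repellent cue acting through neuropilin-1, made up 50.5% and 38.1% of the class 3 sum in controls and 39.5% and 42.1% after BAL101553. Of the 54 genes, 10 had over 100 CPM in all 6 tumor libraries (*Sema7a*, *Plxnb2*, *Plxna1*, *Nrp2*, *Sema5a*, *Sema3a*, *Sema3e*, *Efnb2*, *Epha2* and *Ephb4*), 15 had under 1 CPM in all 6, and 3 (*Epha6*, *Epha10* and *Plxna4os1*) were at 0 in all 6.

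**Figure D1:**
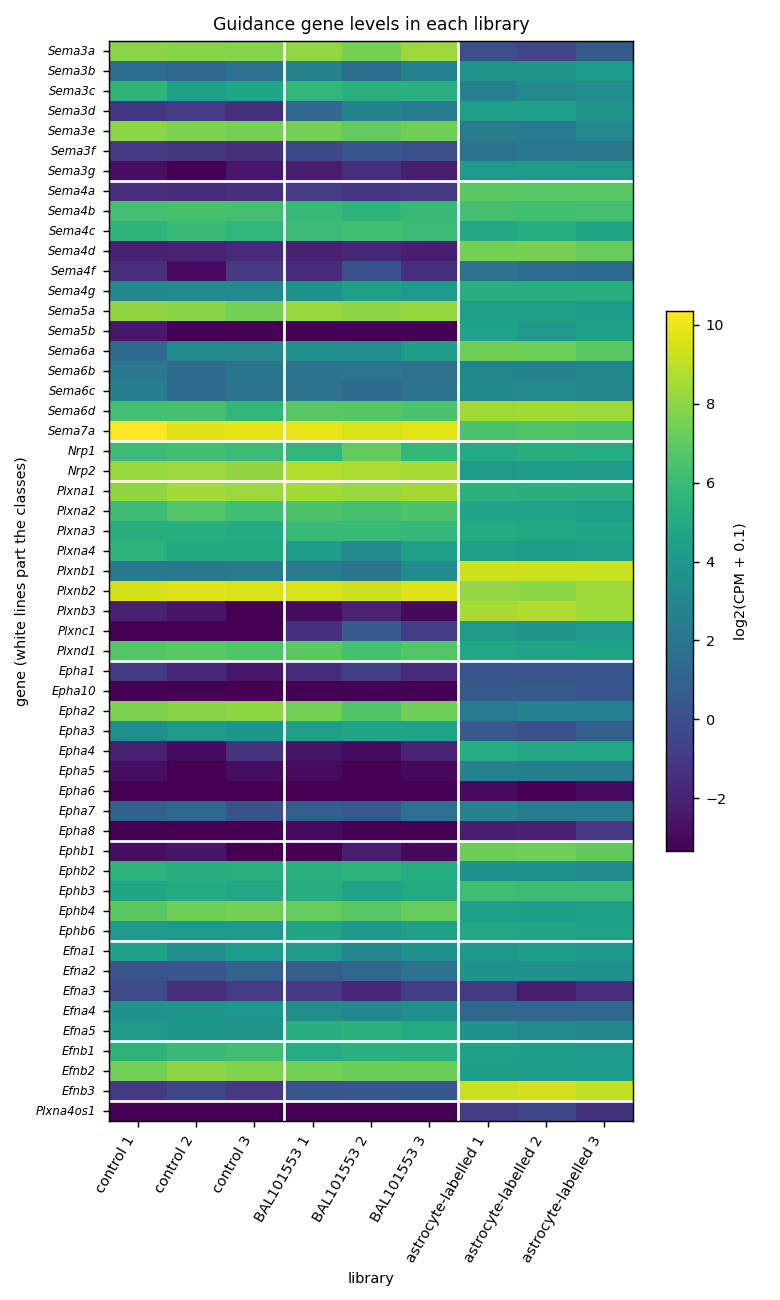
Level of each of the 54 genes (rows, parted into classes by white lines) in the 9 libraries (columns), as log2(CPM + 0.1). The control and BAL101553 columns look alike for most genes, while *Plxnb3*, *Ephb1*, *Sema4d* and *Efnb3* are dark in the 6 tumor columns and bright in the 3 astrocyte-labelled ones.

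Of the members with the highest level per kilobase of each class over the 6 tumor libraries, *Nrp2* rose after BAL101553 and the rest did not pass the test. *Sema7a* (chromosome 9, 57940112 to 57962865) had 1306, 854.7 and 890.9 CPM in control 1, 2 and 3 and 961.6, 731.7 and 898.5 CPM in BAL101553 1, 2 and 3. The groups overlapped, and control 1 was the highest library. The log2 fold change was -0.23 (adjusted p = 0.409 over all genes tested, edgeR's quasi-likelihood test), and without control 1 it was -0.01. *Plxnb2* had 698.4, 832.8 and 732.8 CPM in controls and 742.4, 611.9 and 797.7 CPM after BAL101553, again with overlap and an adjusted p of 0.724. *Ephb4*, a receptor for ephrin-B2, had 152 ± 30.1 CPM in controls and 131 ± 18.3 CPM after BAL101553 (SD, n = 3; adjusted p = 0.379). Its ligand *Efnb2* had 212 ± 39.9 and 164 ± 13.3 CPM (SD, n = 3; adjusted p = 0.108). *Sema3e* had 209 ± 37.6 and 162 ± 25.2 CPM (SD, n = 3; adjusted p = 0.152), and *Sema3a* 235 ± 12.6 and 258 ± 64.6 CPM (SD, n = 3; adjusted p = 0.621). *Efna1*, the ephrin-A ligand with the highest level per kilobase over the 6 tumor libraries together and the next highest, below *Efna5*, in the BAL101553 libraries alone, ranged from 10.8 to 22.2 CPM in controls and from 7.93 to 16.8 CPM after BAL101553 (adjusted p = 0.352).

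The first comparison asked which guidance genes differed between tumors of BAL101553-treated and control mice. Of the 54 genes, 39 could be tested, and 10 passed edgeR's quasi-likelihood test at an adjusted p of 0.05, which is 25.6% of those tested beside 14.7% of all 12633 genes tested. Of the 10, 8 were higher after BAL101553 (background 8.64% of all genes) and 2 were lower (6.09%). The class 3 semaphorins *Sema3d* and *Sema3f*, *Sema4g*, the receptors *Nrp2*, *Plxna3* and *Epha3*, and the ephrins *Efna5* and *Efnb3* rose, whereas *Sema4b* and *Efnb1* fell. Another 29 were tested without passing, 15 were too low to be tested, and 17 of the 39 had an unadjusted p under 0.05, beside 34.1% of all genes. The groups did not overlap for 16 of the 39 (41%), beside 39.7% of all genes. With control 1 left out 5 genes were called, with control 2 left out 6, with control 3 left out 2 and with BAL101553 3 left out 5. With BAL101553 1 left out fewer than 10 were called, and with BAL101553 2 left out more than 10. Each of these fits called fewer of all genes than the main fit, which called 1860. Scaling by total library size moved the median log2 fold change of all genes from 0.02 to 0.10. With it 9 guidance genes were called, all higher, beside 1881 of all 12633 genes.

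**Figure D2:**
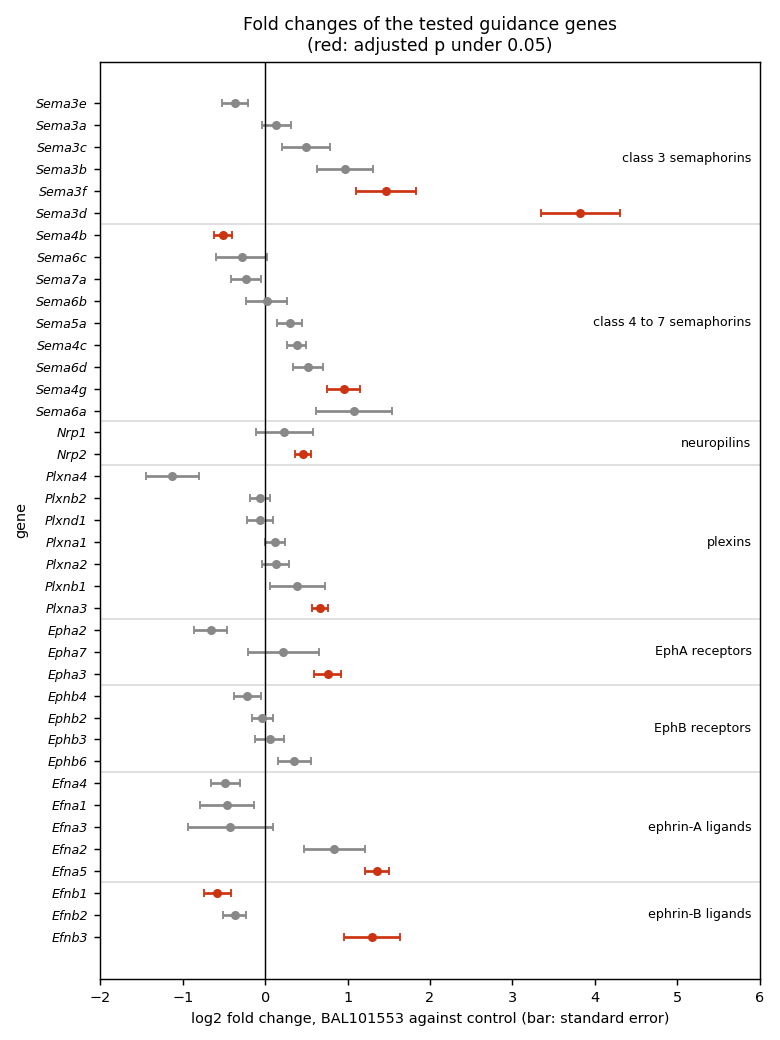
Log2 fold change of the 39 tested guidance genes between BAL101553 and control (points, with bars for the standard error), ordered by class, with the 10 genes past an adjusted p of 0.05 in red. *Sema3d*, at 3.83, lies furthest to the right, and the red points left of 0 are *Sema4b* at -0.51 and *Efnb1* at -0.58.

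Among the class 3 semaphorins, which are secreted, *Sema3d* rose from near the limit of detection. *Sema3d* (chromosome 5, 12383385 to 12588948) had 0.359, 0.417 and 0.253 CPM in controls, from 8, 11 and 6 reads, and 2.43, 7.18 and 5.15 CPM after BAL101553, from 71, 182 and 175 reads. Every BAL101553 library was above every control library, and the BAL101553 libraries differed among themselves by more than the controls. The log2 fold change was 3.83 (SE 0.48, adjusted p = 0.00728), a 14.2-fold rise, and between 3.45 and 4.15 with any 1 library left out. *Sema3f*, a ligand for neuropilin-2, had 0.404, 0.341 and 0.295 CPM in controls and 0.752, 1.22 and 0.913 CPM after BAL101553, from 7 to 9 and from 22 to 31 reads. The groups were apart, but the call (log2 fold change 1.47, SE 0.36, adjusted p = 0.035) was lost in each of the 6 fits that left out 1 library and under DESeq2 (adjusted p = 0.0675). *Sema3g* had 3 reads over the controls and 14 over the BAL101553 libraries, a ratio of 3.82 with a 95% counting interval of 1.07 to 20.7, and was not tested. *Sema3b* had 2.76 ± 0.452 and 5.37 ± 2.14 CPM (SD, n = 3; adjusted p = 0.0888) and *Sema3c* 31.6 ± 14.2 and 44.5 ± 6.22 CPM (SD, n = 3; adjusted p = 0.258). The summed level of the class per kilobase was 44.6 ± 6.78 in controls and 44.2 ± 7.66 after BAL101553 (SD, n = 3), since *Sema3e* and *Sema3a* carry it.

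Of the semaphorins of classes 4 to 7, which are membrane-bound, 1 rose, 1 fell and 7 did not pass. *Sema4g* had 8.3, 8.68 and 9.22 CPM in controls and 12.5, 21.4 and 16.6 CPM after BAL101553. All 3 treated libraries were higher (log2 fold change 0.95, SE 0.20, adjusted p = 0.0244), and the call was lost without each single control and without BAL101553 3. *Sema4b* had 77.5, 82.4 and 80.7 CPM in controls and 58.7, 47.3 and 61.9 CPM after BAL101553, with no overlap. Its log2 fold change was -0.51 (SE 0.11, adjusted p = 0.0253), and the call was lost without each single control and under scaling by total library size (adjusted p = 0.0566). *Sema4c* had 52.3 ± 5.6 and 68.0 ± 6.45 CPM (SD, n = 3; adjusted p = 0.0591), and *Sema6d*, a ligand of plexin-A1, 71.1 ± 16.9 and 102 ± 12.2 CPM (SD, n = 3; adjusted p = 0.0889). *Sema6a*, a ligand of A-type plexins, had 2.42 CPM in control 1 against 8.46 to 9.36 in the other controls and 10.4 to 20.5 after BAL101553 (adjusted p = 0.147). *Sema6a*, *Sema4c* and *Sema6d* were chosen after their values were seen.

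Of the neuropilins, which bind class 3 semaphorins and forms of VEGF, *Nrp2* rose and *Nrp1* was unsettled by 1 library. *Nrp2* (chromosome 1, 62703285 to 62818695) had 298.6, 312.5 and 273.7 CPM in controls and 438.5, 394.9 and 378.4 CPM after BAL101553. The groups were apart (log2 fold change 0.46, SE 0.098, adjusted p = 0.0243), and the rise was 1.37-fold. The call was lost without control 1, without control 3 and without BAL101553 1. *Nrp1* had 66.3, 73.2 and 67.3 CPM in controls and 50.3, 136 and 55.6 CPM after BAL101553. BAL101553 2 lay above all controls and the other BAL101553 libraries below them (adjusted p = 0.668), and with BAL101553 2 left out the gene was lower and passed (log2 fold change -0.38, adjusted p = 0.0468).

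Of the 7 plexins tested, 1 passed. *Plxna3*, a co-receptor with neuropilin-2 for *Sema3f*, is on chromosome X (74329066 to 74344689). Its CPM was 39.5, 37.5 and 34.4 in controls and 59.0, 61.8 and 55.6 after BAL101553, with all treated libraries above all controls. The log2 fold change was 0.67 (SE 0.099, adjusted p = 0.01), and the call was lost without control 3 and held without any other single library. *Plxna4*, a receptor for *Sema3a* with neuropilin-1, had 46.5, 31.4 and 31.3 CPM in controls and 19.9, 8.68 and 21.2 CPM after BAL101553. The groups were apart, with BAL101553 2 lowest, but the gene did not pass (log2 fold change -1.13, SE 0.32, adjusted p = 0.0535), and it was called in 5 of the 8 other tests, scalings and filters and with BAL101553 2 left out. *Plxnc1*, the receptor for *Sema7a*, had 0 reads in each control library and 8, 36 and 15 reads in the BAL101553 libraries. Against the limit of 3 reads per library it was at least 5.7-fold higher after BAL101553. It was too low to be tested in the main comparison and was called in 2 of the 8 other settings and with BAL101553 1 left out. *Plxna4* and *Plxnc1* were chosen after their values were seen. *Plxnd1*, the receptor for *Sema3e*, had 106 ± 11.1 and 101 ± 20.6 CPM (SD, n = 3; adjusted p = 0.806), and *Plxna1* 315 ± 41.5 and 340 ± 34.3 CPM (SD, n = 3; adjusted p = 0.538).

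Of the Eph receptors, *Epha3* rose, and the receptor at the highest level did not pass. *Epha3* (chromosome 16, 63543534 to 63864175) had 11.3, 16.3 and 14.9 CPM in controls and 21.4, 26.2 and 24.2 CPM after BAL101553. All treated libraries were above all controls (log2 fold change 0.76, SE 0.16, adjusted p = 0.0243), and the call was lost without control 1, without control 3 and without BAL101553 3. *Epha2* (chromosome 4, 141301240 to 141329384) had 199.5, 241.3 and 258.3 CPM in controls and 178.9, 101.3 and 159.6 CPM after BAL101553. Each treated library was below each control, without passing (log2 fold change -0.66, SE 0.20, adjusted p = 0.0621). It was called in 4 of the 8 other tests, scalings and filters and in 0 of the 6 fits that left out 1 library. Of the 4 EphB receptors tested, 0 passed in edgeR's quasi-likelihood test, 0 had an unadjusted p under 0.05 and 0 were called by the exact test or DESeq2, while *Ephb6* was called with BAL101553 2 left out. Their log2 fold changes were 0.35 for *Ephb6*, which lacks kinase activity, 0.05 for *Ephb3*, -0.03 for *Ephb2* and -0.22 for *Ephb4*.

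Among the ephrins, *Efna5* and *Efnb3* rose and *Efnb1* fell. *Efna5* (chromosome 17, 62604184 to 62881317), a ligand of EphA receptors among them the EphA3 receptor, had 17.3, 14.2 and 14.1 CPM in controls and 38.8, 43.3 and 34.1 CPM after BAL101553. The lowest treated library was above the highest control. The log2 fold change was 1.36 (SE 0.14, adjusted p = 0.00608), a 2.56-fold rise, between 1.26 and 1.46 with any 1 library left out, and the gene was called in all 6 of these fits. *Efnb1* (chromosome X, 99136130 to 99148991), a ligand of EphB receptors, had 45.9, 62.6 and 70.2 CPM in controls and 35.5, 42.9 and 40.7 CPM after BAL101553. Control 1 lay close above BAL101553 2, and the call (log2 fold change -0.58, SE 0.16, adjusted p = 0.0488) held only without control 1 among the 6 fits and was lost under scaling by total library size (adjusted p = 0.0773). *Efnb3* rested on 9, 18 and 9 reads in controls and 34, 31 and 42 after BAL101553, which is 0.404, 0.682 and 0.379 against 1.16, 1.22 and 1.24 CPM. The groups were apart (log2 fold change 1.29, SE 0.34, adjusted p = 0.041), and of the 6 fits that left out 1 library the call held only in the one without control 2. It also held in the exact test and was lost under DESeq2 (adjusted p = 0.067). The remaining ephrin-A ligands did not pass, with 14.0 ± 1.6 and 9.97 ± 1.88 CPM for *Efna4* (SD, n = 3; adjusted p = 0.099) and 1.38 ± 0.486 and 2.46 ± 0.895 CPM for *Efna2* (SD, n = 3; adjusted p = 0.154).

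**Figure D3:**
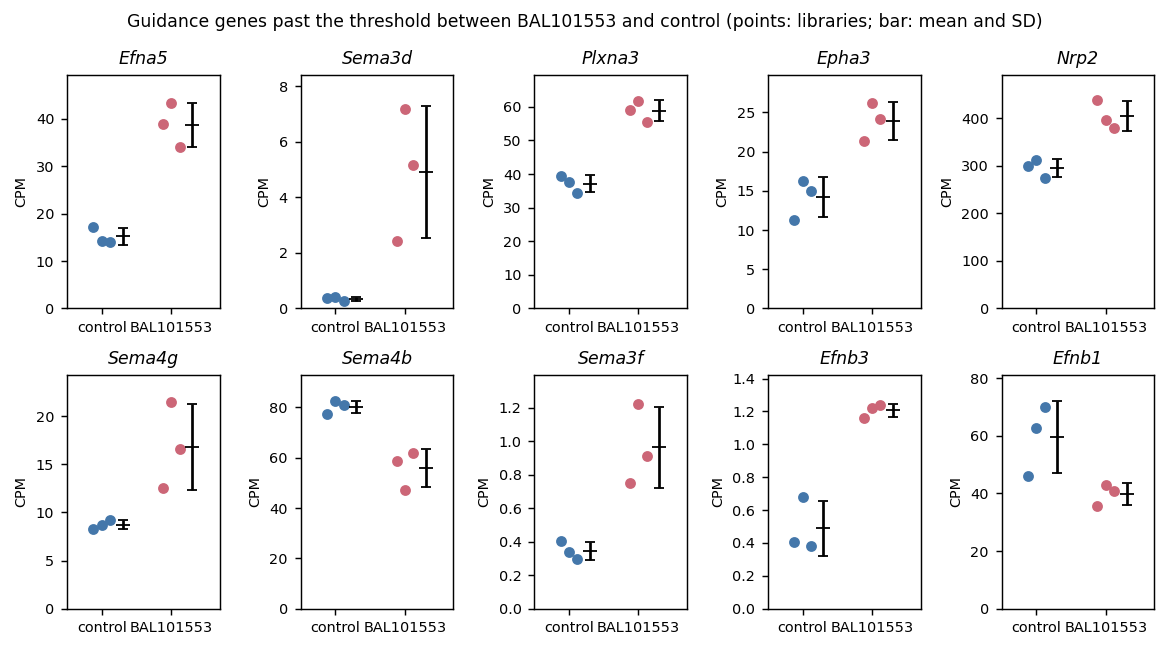
CPM of the 10 guidance genes called between BAL101553 and control, each point 1 library, with the mean and SD beside each group of 3 and axes starting at 0. In all 10 panels the groups do not overlap, most narrowly for *Efnb1* (45.9 CPM in control 1 against 42.9 in BAL101553 2).

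Marker lists of other cells also differed between the tumor groups. Summed CPM was 241.6 to 286.7 in controls and 381.9 to 405.3 after BAL101553 for the 7 pericyte markers, 227.5 to 438.7 and 468 to 607.5 for the 6 oligodendrocyte precursor markers, 159 to 292.1 and 310.4 to 385.1 for 9 microglia and macrophage markers, 57.2 to 119.2 and 33.9 to 60.02 for the 10 neuron markers, and 754.5 to 894.9 and 546 to 669 for the 10 endothelial markers. Of these lists, only the neuron sums overlapped. Single genes set most of these sums. *Pdgfrb* carried the pericyte sum, with *Higd1b* at 0 in all 6 libraries, *Pdgfra* and *Cspg4* the precursor sum, *Tmem119* the microglia sum, and *Cdh5* the endothelial sum, with *Cldn5* at 0.295 to 1.48 CPM. The other precursor markers, *Sox10*, *Gpr17*, *Olig1* and *Olig2*, had at most 0.359 CPM in a tumor library and were too low to be tested. Their means were all lower after BAL101553, without overlap for *Olig1* (0.28 to 0.149 CPM) and *Olig2* (0.0795 to 0.0212 CPM). Against the direction of their sums, the pericyte marker *Rgs5* fell from 4.46 ± 2.40 to 0.856 ± 0.58 CPM (SD, n = 3; adjusted p = 0.0371 in edgeR's quasi-likelihood test) and the microglia marker *P2ry12* from 1.74 ± 0.858 to 0.463 ± 0.118 CPM (SD, n = 3; adjusted p = 0.0313). Of the neuron markers, *Nefm* fell from 21.1 ± 9.28 to 4.32 ± 2.1 CPM (SD, n = 3, adjusted p = 0.0189). *Nefl* went from 24.5 ± 17.1 to 5.5 ± 3.75 CPM without passing (SD, n = 3, adjusted p = 0.0503). *Syn1* went the other way with no overlap, from 13.0 ± 0.873 to 15.6 ± 0.904 CPM (SD, n = 3, adjusted p = 0.176). *Snap25*, too low to be tested, was also higher without overlap. The groups overlapped for *Gad1*, *Syt1* and *Stmn2*. *Rbfox3* and *Slc32a1* were at 0. The 6 T cell markers summed to at most 0.168 CPM, with *Cd3e*, *Cd3d*, *Cd8a* and *Cd2* at 0. The part of these cells in the changes of the guidance genes was not tested.

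For the signalling partners of both systems, the median log2 fold change between BAL101553 and control lay near that of all genes, and few genes were called. Of 27 semaphorin and plexin partners, 24 were tested and 1 passed (4.17%, beside 14.7% of all genes), lower after BAL101553, with a median log2 fold change of -0.07 beside 0.02 for all genes. The 1 was *Gipc1*, an adaptor that binds the tails of plexins and neuropilin-1, at 74.3 ± 4.89 CPM in controls and 51.4 ± 6.17 CPM after BAL101553 (SD, n = 3; log2 fold change -0.53, adjusted p = 0.0225 in edgeR's quasi-likelihood test). This call was lost without each single control, without BAL101553 1 and under scaling by total library size (adjusted p = 0.0501). Of 22 Eph and ephrin partners, 21 were tested and 5 passed (23.8%, beside 14.7% of all genes), of which 4 were higher and 1 lower, with a median of -0.02. *Ngef*, the exchange factor ephexin that links EphA receptors to RhoA, fell from 129 ± 17.4 to 63.2 ± 13.0 CPM (SD, n = 3; log2 fold change -1.02, adjusted p = 0.0126), a call that held without any single library. *Rasa1*, a RAS GTPase-activating protein that binds Eph receptors, rose from 121 ± 5.61 to 177 ± 11.1 CPM (SD, n = 3; log2 fold change 0.56, adjusted p = 0.0123), which was lost without control 3. *Itsn1*, an exchange factor for Cdc42 downstream of EphB2, rose from 65.8 ± 8.65 to 96.7 ± 5.51 CPM (SD, n = 3; log2 fold change 0.56, adjusted p = 0.019), which was lost without control 1, without control 3 and without BAL101553 3.

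The second comparison set the astrocyte-labelled libraries beside the BAL101553 tumor libraries, which carry the same treatment label. It shares the BAL101553 libraries with the first. Of 51 guidance genes tested, 47 passed (92.2%, beside 85.1% of all 15314 genes tested), and for 47 the groups did not overlap (beside 87.8% of all genes). In the astrocyte-labelled libraries 26 were higher (background 46.3%) and 21 lower (38.9%). With so many of all genes called, the results are the levels, and in every class the member with the highest level per kilobase was another than in the BAL101553 libraries. Of the 9 genes with over 100 CPM in all 3 astrocyte-labelled libraries (*Efnb3*, *Plxnb1*, *Plxnb3*, *Sema6d*, *Plxnb2*, *Sema4d*, *Ephb1*, *Sema6a* and *Sema4a*), 1, *Plxnb2*, was among the 10 with over 100 CPM in all tumor libraries.

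Among semaphorins, *Sema6d* had the highest level per kilobase in the astrocyte-labelled libraries, at 31.9 ± 2.2 CPM per kilobase against 9.64 ± 1.15 in the BAL101553 libraries (SD, n = 3; log2 fold change 1.75, adjusted p = 2.18e-06 in edgeR's quasi-likelihood test). *Sema7a* fell to 91.0, 101 and 88.5 CPM (log2 fold change -3.19, SE 0.14, adjusted p = 2.87e-07) and to 18.5% of its class. *Sema4d*, a ligand of plexin-B1, had 178.8, 187.6 and 143.1 CPM against 0.118 to 0.197 in the BAL101553 libraries, and *Sema4a* 118.4, 114.8 and 114.8 CPM against 0.355 to 0.41. Both were chosen after their values were seen. *Sema5b* had no read in the BAL101553 libraries and 16.9 to 23.9 CPM in the astrocyte-labelled ones, at least 204-fold higher, while its relative *Sema5a* went from 285 ± 18 to 20.3 ± 2.4 CPM (SD, n = 3; log2 fold change -3.80, adjusted p = 6.54e-08). In class 3, *Sema3a* had 0.925, 0.621 and 1.36 CPM, 265-fold below the BAL101553 libraries (log2 fold change -8.05, SE 0.32, adjusted p = 1.75e-07). *Sema3g* had 16.3, 18.6 and 16.3 CPM against 0.103 to 0.276 (log2 fold change 6.72, SE 0.29, adjusted p = 2.6e-07).

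Of the receptors, the B-type plexins were the highest per kilobase in the astrocyte-labelled libraries. *Plxnb1*, the receptor for *Sema4d*, had 629.1, 601.3 and 581.2 CPM against 4.69, 3.79 and 9.57 in the BAL101553 libraries, with BAL101553 3 the highest of these (log2 fold change 6.64, SE 0.36, adjusted p = 7.79e-07 in edgeR's quasi-likelihood test). *Plxnb3*, a receptor for *Sema5a*, had 378, 422.7 and 336 CPM, against 6 reads in all over the BAL101553 libraries, a ratio of 5610 with a 95% counting interval of 2580 to 15300. They made up 35.9% and 33.3% of the plexin sum per kilobase, and *Plxnb2* 21.3%. *Plxna1* went from 340 ± 34.3 to 40.9 ± 3.32 CPM (SD, n = 3; log2 fold change -3.04, adjusted p = 1.56e-07). Both neuropilins fell, *Nrp2* to 17.3, 19.8 and 18.6 CPM (log2 fold change -4.43, SE 0.11, adjusted p = 2.22e-08) and *Nrp1* to 34.0 to 39.2 CPM (log2 fold change -1.13, adjusted p = 0.016). For *Nrp1* the log2 fold change was -0.55 without BAL101553 2, and the call was lost without astrocyte-labelled library 3 (adjusted p = 0.0532). *Plxna4* was at 20.1 ± 1.26 CPM and not called (SD, n = 3; adjusted p = 0.406). With control in place of BAL101553, *Plxna4* was lower in the astrocyte-labelled libraries and passed (log2 fold change -0.85, adjusted p = 0.0011).

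Of the Eph receptors and ephrins, *Ephb1*, *Epha4* and *Efnb3* had at most 1.24 CPM in the tumor libraries and were the highest of their class per kilobase in the astrocyte-labelled libraries. *Ephb1* had 155.4, 163.5 and 127.3 CPM against 4 reads over the BAL101553 libraries, a ratio of 3310 with a 95% counting interval of 1290 to 12200. *Epha4*, which binds both A- and B-type ephrins, had 35.2, 30.9 and 28.5 CPM against 8 reads, a ratio of 352 (178 to 815). *Efnb3* had 597.7, 677.2 and 533.4 CPM (log2 fold change 8.97, SE 0.16, adjusted p = 7.9e-09 in edgeR's quasi-likelihood test) and went from 1.06% of the ephrin-B sum per kilobase in the BAL101553 libraries to 95.7%. *Efnb2* fell to 19.4, 17.9 and 18.1 CPM (log2 fold change -3.14, SE 0.096, adjusted p = 5.26e-08), *Epha2* to 4.99, 6.66 and 6.23 CPM (log2 fold change -4.61, SE 0.25, adjusted p = 8.41e-07) and *Ephb4* to 20.6, 19.9 and 21.5 CPM (log2 fold change -2.65, adjusted p = 4.05e-07). Among ephrin-A ligands, *Efna2* rose to 12.7, 12.8 and 13.1 CPM (log2 fold change 2.39, adjusted p = 4.63e-05) and *Efna4* fell to 2.31, 2.14 and 2.49 CPM (log2 fold change -2.10, adjusted p = 2.64e-05). *Efna1* was at 15.8, 19.4 and 15.3 CPM and did not pass (adjusted p = 0.134). The EphA sum was 34.4 ± 8.4 CPM per kilobase in the BAL101553 libraries and 6.82 ± 0.352 in the astrocyte-labelled ones, and the EphB sum 41.8 ± 5.98 and 43.6 ± 3.43 (SD, n = 3).

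**Figure D4:**
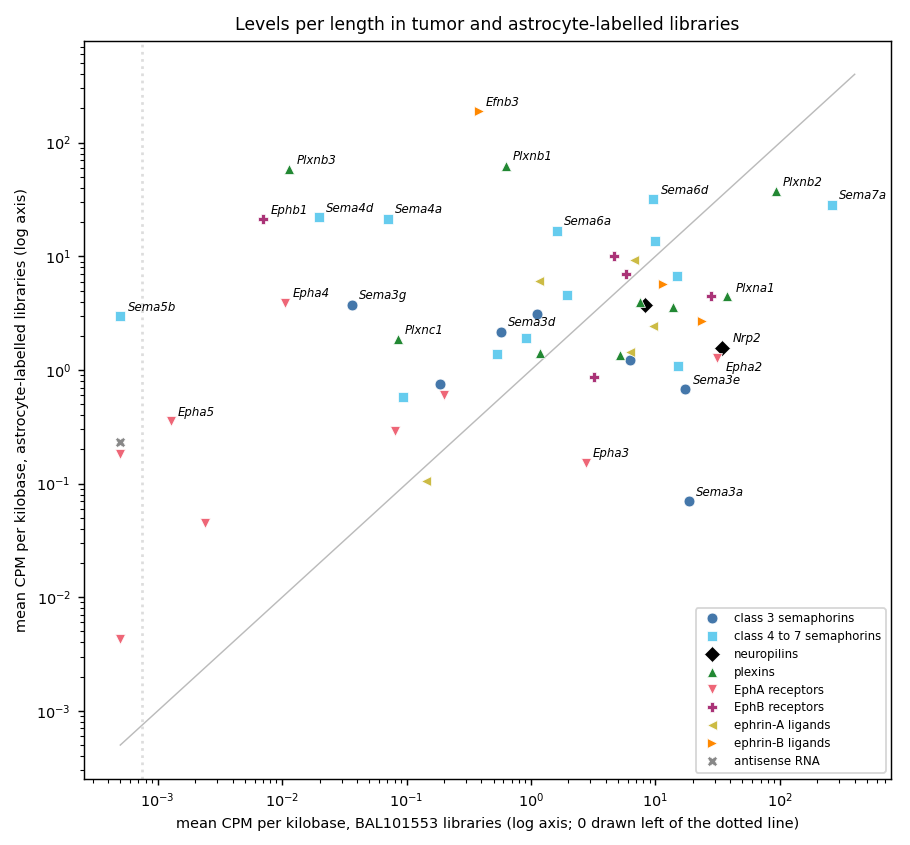
Mean CPM per kilobase of each guidance gene in the BAL101553 tumor libraries (x axis) and the astrocyte-labelled libraries (y axis), on log axes, with symbols for the classes and a line where both are equal. *Efnb3*, *Plxnb1*, *Plxnb3* and *Ephb1* lie far above the line, *Sema3a*, *Nrp2* and *Epha2* far below it, and *Plxnb2* and *Sema7a* are the 2 genes furthest right.

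Some members lie beside each other. On GRCm38, *Sema3d*, *Sema3a* and *Sema3e* follow each other on chromosome 5, with 536 kb and 423 kb between them, and of these only *Sema3d* was called after BAL101553. *Sema3b* and *Sema3f* are 72.3 kb apart on chromosome 9. *Efna1*, *Efna3* and *Efna4* lie together on chromosome 3 with 32.8 kb and 10.4 kb between them, and none was called after BAL101553. *Plxna4os1* lies within *Plxna4*. Exons on the opposite strand overlap 14.1% of the exon length of *Efna3*, 10.7% of *Plxna1* and 10.5% of *Efna4*. The strand setting used for counting is not given in the sources used here, so reads of these overlaps are uncertain.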

How the data were processed

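The authors prepared stranded libraries, mapped the reads with TopHat and used PicardTools, HTSeq (version 0.6.1 in the submitters' processing notes, which name mm10) and featureCounts to summarize and count them. Which counter made the table, its strand setting and its annotation are not given in the sources used here. The deposited values are raw counts of reads per gene in 9 libraries. The paper states 2 ex vivo samples per group, while the table holds 3. The paper's text also places its sequencing data in a series other than the one used here. Whether all its steps apply to these libraries is therefore not stated. Libraries were grouped by their labels. Rows whose names had become dates (27 names, at most 0.44% of counts) stayed in library sizes and tests.

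The counts were tested with edgeR 4.0.16 in R 4.3.3 (filterByExpr, TMM and the quasi-likelihood test, two-sided, with p-values of all genes tested adjusted by Benjamini-Hochberg and a threshold of 0.05), with only the 2 groups compared in each fit. SEs are the size of the log2 fold change over the square root of F. Group floors average the 3-read limits of its libraries. Ratios of genes with at most 10 reads in a group pool the reads and carry exact 95% intervals, which cover counting error only. Exon lengths, positions and neighbours are from GENCODE vM21 on GRCm38. Members and lists were chosen with earlier results of these data known. Genes named were those called, the highest per kilobase of each class in the tumor and astrocyte-labelled libraries, the largest rise and fall of each class between BAL101553 and astrocyte-labelled libraries, and up to 3 called partners per list; any other was chosen after its values were seen. Alternatives were edgeR's exact test, DESeq2 1.42.0, other scalings and filters, all 9 libraries in 1 model, the replicate number as a block, and libraries left out. Tests were tested on simulated data. A marker of the microglia and macrophage list is not reported here and was left out of its sum.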

Additional observations from a re-analysis of the deposited data

How the results depend on the processing

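Between BAL101553 and control, 10 guidance genes were called by edgeR's quasi-likelihood test, 14 by the exact test and 13 by DESeq2. Of all 12633 genes tested, these tests called 1860, 2493 and 2832, so the background rose too. With at least 1 count in any library 12 guidance genes were called, and with all 9 libraries in 1 model 15. With at least 10 counts in every library 6 were called, a filter that does not test *Sema3d*, *Sema3f* and *Efnb3*. The filters and the 1 model also change which of all genes are tested. Counts in this paragraph that stand without a count of all genes are not read as results about the guidance genes. Leaving out 1 library, or 1 in each group, gave 0 to 11 calls, with 0 in 4 of the 9 fits on 2 libraries per group, and over all genes 1 to 1757 in place of 1860. The astrocyte-labelled comparison gave 37 to 49 calls in place of 47. Of the 51 members tested there, 3 changed direction in at least 1 alternative, and 1 of these, *Sema4b*, was among those called. Its log2 fold change was 0.48 against BAL101553 (adjusted p = 0.00496, quasi-likelihood test) and -0.045 against control (adjusted p = 0.555). Whether replicate numbers pair the libraries was not settled. Deviations of control and BAL101553 libraries with the same number correlated at 0.143, 0.0113 and 0.145, and those with different numbers at -0.194 to 0.0819. Control 2 correlated best with BAL101553 3. For BAL101553 and astrocyte-labelled libraries the same-number values were -0.000999, 0.0585 and 0.0333. The different-number values were -0.0592 to 0.0272. With the replicate block 10 and 47 genes were called, with 7 higher and 3 lower in the first comparison, where *Sema3f* (adjusted p = 0.0674) and *Efnb3* (0.0677) were lost and *Plxna4* (0.0362) and *Sema6d* (0.0346) gained. Of the 39 members tested between BAL101553 and control, 16 changed direction in at least 1 alternative, and 0 of these were among the 10 called. They include *Nrp1* (-0.402 to 0.519), *Plxnb2*, at 0.02 by total library size and -0.196 to 0.096 with libraries left out (0.03 without BAL101553 2), and, with libraries left out, *Sema7a* (-0.434 to 0.098), *Efna1* (-0.996 to 0.014) and *Ephb4* (-0.432 to 0.018). *Efna1* was at -0.009 with control in place of BAL101553 beside the astrocyte-labelled libraries, and passed without BAL101553 1 (log2 fold change 0.73, adjusted p = 0.0193). The cause of these changes was not tested. Genes of a few reads are limited by depth, and treatment and time of growth cannot be told apart.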

Other observations

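Netrins and repulsive guidance molecules, with their receptors, are another family of guidance cues. Of 17 such genes 16 were in the table and 11 were tested between BAL101553 and control, of which 1 (9.09%, beside 14.7% of all genes) passed, higher after BAL101553, with a median log2 fold change of 0.02, as for all genes. The 1 was *Ntn1*, which encodes netrin-1, with 64.3, 84.9 and 80.2 CPM in controls and 99.97, 132 and 119 CPM after BAL101553 (log2 fold change 0.62, SE 0.14, adjusted p = 0.0281 in edgeR's quasi-likelihood test). Every treated library was above every control, and the call was lost without control 1, without control 3 and without BAL101553 3. In the astrocyte-labelled libraries *Ntn1* was lower, at 42.7 ± 1.94 CPM (SD, n = 3; log2 fold change -1.44, adjusted p = 1.58e-06). Between astrocyte-labelled and BAL101553 libraries, 14 of these genes were tested, 7 were higher and 5 lower (85.7% called, beside 85.1% of all genes, with 46.3% higher and 38.9% lower), with a median of 1.04. For the semaphorin and plexin partners 11 were higher and 11 lower of 27 (81.5% called), and for the Eph and ephrin partners 7 and 10 of 22 (77.3% called).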
